A study of Mus musculus with 28 samples.

Results

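The Hox genes encode homeodomain transcription factors that give cells along the body axis their position. The 39 mouse Hox genes, chosen here by their symbols, lie in 4 clusters on chromosomes 6 (Hoxa, 11 genes), 11 (Hoxb, 10 genes), 15 (Hoxc, 9 genes) and 2 (Hoxd, 9 genes). Their numbers, 1 to 13, give the paralog group, which is also the order along the cluster. All 39 were listed in each of 3 RNA-seq tables, among 56691 genes for bulge stem cells, 47243 for hair germ stem cells prepared by SHERRY2 and 57010 for hair germ stem cells prepared by SMART-seq.

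Within a cluster, genes at the low-numbered end are used toward the head and those at the high-numbered end toward the tail and the tips of the limbs. Adult skin keeps a Hox pattern that differs between body sites, which is best known from dermal fibroblasts. Hoxc13 departs from that rule: it is used in growing hair follicles all over the body, where it drives hair keratin genes, and mice without it have brittle hair and bald skin. Polycomb proteins hold unused Hox genes silent, trithorax proteins keep used ones open, and Pbx, Meis and Pknox proteins bind DNA together with Hox proteins.

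Alkbh5, an RNA demethylase that takes off m6A, was deleted in the conditional knockout (cKO) mice and intact in the wild-type (WT) mice. All were at postnatal day 69, and the series concerns how a resting (telogen) follicle enters growth (anagen). The bulge is the reserve of the follicle, and the hair germ, beneath it, divides early in a new growth phase. Each dataset had 2 cKO and 2 WT mice: bulge by SHERRY2 from 200 ng of RNA, hair germ by SHERRY2 from 40 ng and hair germ by SMART-seq from 40 ng. In SHERRY2 a transposase tags RNA/cDNA hybrids directly; SMART-seq copies and amplifies whole cDNA. Cells were sorted by flow cytometry. Not given in the sources used here: Cre driver, deleted stretch of Alkbh5, strain, sorting markers and body site of the skin. The m6A libraries, 16 of the 28 samples, were not analysed here.

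Alkbh5 had 4.45 and 2.52 CPM (counts scaled to the library total of reads in genes) in the cKO bulge libraries, against 98.9 and 92.1 in the WT bulge libraries. In hair germ SHERRY2 it had 17.7 and 6.90 in cKO libraries and 62.8 and 61.4 in WT libraries. In SMART-seq it had 84.8 and 105 in the libraries labelled cKO and 132 and 95.3 in those labelled WT, so the genotype there rests on the labels only. Libraries held 14676168 to 21187283 reads in genes in the bulge, 488648 to 2317407 in hair germ SHERRY2 and 9001396 to 14416601 in SMART-seq. Hox genes took 319 to 432, 360 to 604 and 341 to 419 CPM in these datasets. Keratinocyte markers (Krt5, Krt14, Itga6, Trp63, Cdh1) summed to between 10915 and 28515 CPM in all 12 libraries. The 8 dermal fibroblast markers summed to at most 24.6 in the bulge and 90.2 in SMART-seq, with Twist2 at 0 in all of these libraries, and to between 65.6 and 276 in hair germ SHERRY2. By Xist and Y-linked reads, 1 bulge library (WT 2), 1 hair germ SHERRY2 library (cKO 1) and 2 SMART-seq libraries (labelled cKO 2 and WT 2) came from males.

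Promoter sequences of RefSeq (GRCm38.p6), from 250 bases before to 50 after an annotated start, were matched to 22 Hox genes with 24 promoters. Hoxa7 is shown as the gene with the highest bulge level, Hoxa10 as a gene of the same cluster with no bulge read, and Hoxb8 for its genotype values given further on. Hoxa7 lies at chr6:52218524-52218823 (minus strand) and Hoxb8 at chr11:96281655-96281954 (plus strand). The upstream start of Hoxa10 is at chr6:52240805-52241104 and its downstream start at chr6:52234890-52235189, both on the minus strand. Capitals mark CpG dinucleotides.
Hoxa7: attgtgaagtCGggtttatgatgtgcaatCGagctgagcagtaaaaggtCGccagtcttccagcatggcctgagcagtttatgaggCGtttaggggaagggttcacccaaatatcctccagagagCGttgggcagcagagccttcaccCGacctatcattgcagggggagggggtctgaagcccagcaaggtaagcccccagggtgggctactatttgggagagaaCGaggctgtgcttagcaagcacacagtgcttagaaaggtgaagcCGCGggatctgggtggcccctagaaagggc
Hoxa10 upstream start: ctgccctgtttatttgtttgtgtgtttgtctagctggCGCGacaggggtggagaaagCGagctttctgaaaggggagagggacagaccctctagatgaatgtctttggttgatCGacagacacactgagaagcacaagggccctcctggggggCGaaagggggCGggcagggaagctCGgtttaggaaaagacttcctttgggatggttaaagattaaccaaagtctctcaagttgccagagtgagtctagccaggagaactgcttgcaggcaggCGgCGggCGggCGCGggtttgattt
Hoxa10 downstream start: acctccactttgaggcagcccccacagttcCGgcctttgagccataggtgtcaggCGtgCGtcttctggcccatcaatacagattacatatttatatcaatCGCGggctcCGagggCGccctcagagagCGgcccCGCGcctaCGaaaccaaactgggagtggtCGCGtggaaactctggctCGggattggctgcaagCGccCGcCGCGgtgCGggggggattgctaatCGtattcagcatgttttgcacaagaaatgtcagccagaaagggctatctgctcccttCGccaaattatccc
Hoxb8: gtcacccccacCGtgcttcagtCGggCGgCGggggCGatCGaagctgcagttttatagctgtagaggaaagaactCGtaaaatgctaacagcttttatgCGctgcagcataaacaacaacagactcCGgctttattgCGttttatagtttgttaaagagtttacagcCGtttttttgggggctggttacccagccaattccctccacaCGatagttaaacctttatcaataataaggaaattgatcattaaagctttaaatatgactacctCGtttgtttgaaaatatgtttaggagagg

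The Hoxa7 promoter holds 9 CpG, the Hoxa10 promoters hold 12 and 21, and the Hoxb8 promoter holds 13. Promoters of the 10 matched Hox genes with a bulge level of at least 1 held a median of 11 CpG (4 to 29). The 14 promoters of the 12 matched Hox genes below that level held a median of 20 (4 to 45), and all 32851 promoters of the table held a median of 7. The TATA box letters TATAAA, searched on both strands, were found in 2 promoters of each Hox group and in 13.6% of all promoters. The letters TGATTNAT, the joint site of Pbx and Hox proteins, were found in 1 promoter of each group and in 3.22% of all, again on both strands. The end of a TGATTNAT match can overlap a TATAAA match.

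MicroRNA genes lie among the Hox genes and share their clusters. Their mature sequences (RefSeq, GRCm38.p6) are shown because miR-196 is known in mouse embryos to cut Hoxb8 RNA, to which it pairs nearly in full. The capitals mark the seed, bases 2 to 8.
miR-10a-5p: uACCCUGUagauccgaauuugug
miR-10b-5p: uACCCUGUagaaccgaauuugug
miR-196a-5p: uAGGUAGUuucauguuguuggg
miR-196b-5p: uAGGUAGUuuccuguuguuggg

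The seed is shared within each pair. Counted from the 5′ end, miR-10b differs from miR-10a by U12A, and miR-196b differs from miR-196a by A12C. These libraries measure gene RNA and not mature miRNA. Reads on the Mir196a-1 gene, in the Hoxb cluster, numbered 165 and 98 in cKO and 101 and 81 in WT bulge libraries. The Mir196a-2 gene of the Hoxc cluster and the Mir196b gene of the Hoxa cluster had no read in the bulge or in SMART-seq. Mir196a-2 overlaps Hoxc5 and Mir196b overlaps Hoxa9 on the same strand, whereas Mir196a-1 overlaps no Hox gene. How reads on overlapping genes were counted is not given in the sources used here, so the 0 may not mean absent RNA.

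Levels below are CPM divided by the kilobases of exon, with mouse 1 given before mouse 2 in each genotype. For hair germ SHERRY2 the genotype fit used the deposited normalized counts instead, on which the order of libraries can differ from that in CPM. The 3 tables were counted and scaled separately, so levels of different datasets stand side by side without a test. In bulk libraries, fewer cells that use a gene and less RNA per cell cannot be told apart.

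In the bulge, 28 of the 39 Hox genes had a read in at least 1 library and 22 had a mean level of at least 1. These 22 comprised 21 of the 27 genes of paralog groups 1 to 9 and 1 of the 12 genes of groups 10 to 13, which was Hoxc13. The other 11 had no read in any of the 4 libraries: Hoxb1 and 10 genes of groups 10 to 13. A count of 0 allows a level of up to 0.0433 to 0.198 in these libraries, depending on exon length and depth, at 3 reads per library and for counting error only. In SMART-seq, 30 genes had a read and 22 had a mean level of at least 1, again 21 of groups 1 to 9 and Hoxc13 alone of groups 10 to 13. There 9 genes had no read in any library, with limits of 0.0494 to 0.175, and Hoxc11, Hoxc12 and Hoxd10 had between 0 and 18 reads per library.

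In hair germ SHERRY2, all 39 genes had a read. Olfactory and vomeronasal receptor genes, which serve smell and pheromone sensing, also had reads there, in 1481 to 1628 of 1704 cases per library. In the bulge, 38 to 53 of 1769 receptor genes had a read, and in SMART-seq 35 to 59 of 1771. The 95th percentile of the receptor level was 3.43 and 1.73 in cKO and 2.57 and 6.58 in WT libraries of hair germ SHERRY2, and 0 in every library of the other datasets. Only 8 Hox genes lay above it in all 4 hair germ SHERRY2 libraries: Hoxa5, Hoxa6, Hoxa7, Hoxb5, Hoxb6, Hoxb7, Hoxc6 and Hoxc8. No gene of groups 10 to 13 did.

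**Figure D1:**
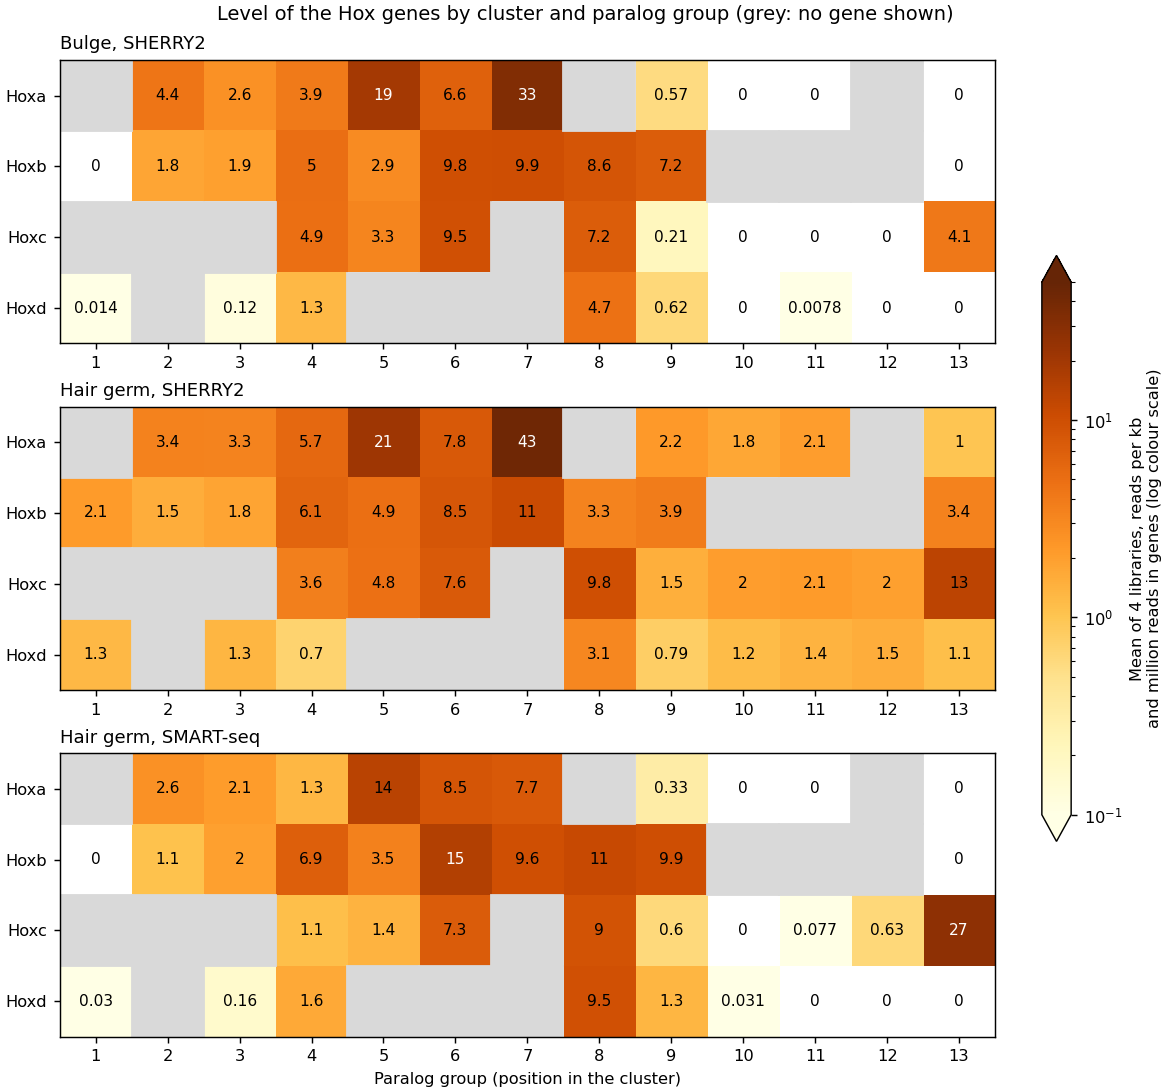
Each cell gives the mean level of a Hox gene over the 4 libraries of a dataset, in CPM per kb of exon, by cluster (rows) and paralog group (columns), on a log colour scale; no gene is shown in grey cells. In the bulge and in SMART-seq the high-numbered groups are at or near 0 apart from Hoxc13, at 4.12 in the bulge and 27.1 in SMART-seq, while hair germ SHERRY2 has reads on all 39 genes, as it has on receptor genes.

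The Hoxa cluster was on from Hoxa2 to Hoxa7 in the bulge and low at Hoxa9. Hoxa7, a gene of trunk position, had the highest Hox level of the bulge at 32.7 and 28.1 in cKO and 29.4 and 40.1 in WT libraries. It had 7.55 and 5.49 in the SMART-seq libraries labelled cKO and 11.5 and 6.38 in those labelled WT. In hair germ SHERRY2 it had 27.1 and 54.3 in cKO and 42.5 and 47.0 in WT libraries, the highest mean there too. Hoxa7 thus ranked at the top in both SHERRY2 datasets and in the tenth place in SMART-seq.

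Hoxa5, which patterns the neck and upper chest and the lung, had 19.1 and 19.8 in cKO and 14.3 and 22.9 in WT bulges. In SMART-seq it had 16.3 and 14.9 in libraries labelled cKO and 14.97 and 9.72 in those labelled WT. In hair germ SHERRY2 it had 17.1 and 30.6 in cKO and 19.7 and 16.4 in WT libraries. Its bulge range lay below that of Hoxa7 and above that of every other Hox gene, while the next genes in the bulge order, Hoxb7, Hoxb6, Hoxc6 and Hoxb8, overlapped in range.

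The other Hoxa genes were lower. Hoxa6 had 8.99 and 6.87 in cKO and 5.35 and 5.38 in WT bulges, and in SMART-seq 7.91 and 11.8 (labelled cKO) against 9.37 and 4.95 (labelled WT). Hoxa2, which patterns the second pharyngeal arch, had 4.39 and 3.75 in cKO and 4.71 and 4.80 in WT bulges, and in SMART-seq 2.43 and 1.56 (labelled cKO) against 4.77 and 1.51 (labelled WT). Hoxa4 had 3.74 and 4.09 in cKO and 3.73 and 4.19 in WT bulges, and in SMART-seq 1.40 and 1.18 (labelled cKO) against 2.09 and 0.488 (labelled WT). Hoxa6 was higher in both cKO bulges than in both WT bulges, Hoxa4 overlapped, and in SMART-seq all 3 overlapped. Hoxa3 had 2.82 and 2.43 in cKO and 2.03 and 2.93 in WT bulges, and in SMART-seq 2.22 and 2.20 (labelled cKO) against 2.95 and 1.09 (labelled WT). Hoxa9 had 0.610 and 0.308 in cKO and 0.321 and 1.03 in WT bulges, and stayed between 0.239 and 0.453 in SMART-seq. Hoxa10, Hoxa11 and Hoxa13 had no read in either dataset.

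The Hoxb cluster was on without a gap from Hoxb2 to Hoxb9 in the bulge and in SMART-seq, with Hoxb1 and Hoxb13 at 0 in all 8 libraries. Hoxb6 had 11.0 and 10.7 in cKO and 6.92 and 10.5 in WT bulges, and in SMART-seq 13.3 and 17.6 (labelled cKO) against 16.7 and 13.6 (labelled WT). Hoxb7 had 8.86 and 8.86 in cKO and 7.67 and 14.3 in WT bulges, and in SMART-seq 10.8 and 10.4 (labelled cKO) against 8.49 and 8.80 (labelled WT). Hoxb8, needed in mice for normal grooming, had 6.83 and 6.59 in cKO and 8.72 and 12.1 in WT bulges, and in SMART-seq 8.72 and 9.91 (labelled cKO) against 13.9 and 12.4 (labelled WT). The level of Hoxb8 was lower in both cKO libraries than in both WT libraries of each of these datasets. Hoxb9 had 8.14 and 6.16 in cKO and 6.60 and 7.99 in WT bulges, and in SMART-seq 7.83 and 11.4 (labelled cKO) against 12.5 and 8.03 (labelled WT).

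The low-numbered Hoxb genes had lower levels. Hoxb4, known for its action in blood stem cells, had 5.10 and 4.98 in cKO and 4.54 and 5.39 in WT bulges, and in SMART-seq 5.36 and 7.49 (labelled cKO) against 8.97 and 5.87 (labelled WT). Hoxb5 had 2.73 and 2.27 in cKO and 2.49 and 3.94 in WT bulges, and in SMART-seq 3.28 and 2.91 (labelled cKO) against 4.66 and 3.07 (labelled WT). Hoxb3 had 2.74 and 1.91 in cKO and 1.32 and 1.76 in WT bulges, and in SMART-seq 2.06 and 1.70 (labelled cKO) against 2.45 and 1.65 (labelled WT). Their genotypes overlapped in SMART-seq. Hoxb2, used in the hindbrain of the embryo, had 1.71 and 2.34 in cKO and 1.35 and 1.66 in WT bulges, and in SMART-seq 1.02 and 1.11 (labelled cKO) against 1.07 and 1.02 (labelled WT).

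In the bulge, the Hoxc genes from Hoxc4 to Hoxc8 were at 2.16 or more in every library, those from Hoxc9 to Hoxc12 at 0.336 or less, and Hoxc13, the last gene, at 2.91 or more. In SMART-seq the single libraries did not part that way, since Hoxc4 and Hoxc5 had values under 1 and Hoxc12 reached 1.51. Hoxc6 had 11.1 and 10.4 in cKO and 7.35 and 9.03 in WT bulges, and in SMART-seq 6.82 and 8.03 (labelled cKO) against 9.91 and 4.63 (labelled WT). Hoxc8, a gene of thoracic position, had 9.06 and 6.19 in cKO and 6.57 and 6.88 in WT bulges, and in SMART-seq 9.45 and 5.37 (labelled cKO) against 15.6 and 5.41 (labelled WT). Hoxc4 had 5.02 and 6.25 in cKO and 3.40 and 4.80 in WT bulges, and in SMART-seq 1.33 and 0.0865 (labelled cKO) against 2.00 and 1.01 (labelled WT). Hoxc4 was thus lower in every SMART-seq library than in any bulge library. Hoxc5 had 4.07 and 4.40 in cKO and 2.44 and 2.16 in WT bulges, and in SMART-seq 2.00 and 0.899 (labelled cKO) against 1.66 and 1.01 (labelled WT). Hoxc9 stayed between 0.0831 and 0.336 in the bulge and between 0.0914 and 0.997 in SMART-seq.

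Hoxc13 had 4.87 and 2.91 in cKO and 3.51 and 5.18 in WT bulges. In SMART-seq it had 22.9 and 30.7 in the libraries labelled cKO and 14.5 and 40.2 in those labelled WT, the highest Hox mean of that dataset. Every SMART-seq library was above every bulge library. Its neighbour Hoxc12 had 0.433 and 0.431 in libraries labelled cKO and 0.135 and 1.51 in those labelled WT in SMART-seq, and no read in the bulge.

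The Hoxd cluster carried the least. Hoxd8 had 7.64 and 1.82 in cKO and 4.13 and 5.31 in WT bulges, and in SMART-seq 7.12 and 11.6 (labelled cKO) against 10.8 and 8.35 (labelled WT). Hoxd4 had 2.04 and 0.497 in cKO and 1.07 and 1.43 in WT bulges, and in SMART-seq 1.29 and 2.41 (labelled cKO) against 1.51 and 1.32 (labelled WT). In the bulge, cKO 1 was the highest and cKO 2 the lowest library for both genes. Hoxd9 had 1.38 and 0.567 in cKO and 0.265 and 0.287 in WT bulges, and in SMART-seq 0.592 and 2.91 (labelled cKO) against 0.487 and 1.30 (labelled WT). Hoxd3 stayed at or below 0.163 in the bulge and 0.381 in SMART-seq. Hoxd1 had reads in only 1 library of each of these datasets, and Hoxd10 to Hoxd13 had at most 2 reads in any library.

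The Hox genes above the receptor background in all hair germ SHERRY2 libraries besides Hoxa5 and Hoxa7 had middle levels there. Hoxb7 had 12.7 and 9.50 in cKO and 4.28 and 15.9 in WT libraries. Hoxc8 had 16.2 and 8.23 in cKO and 6.77 and 7.95 in WT libraries. Hoxc6 had 10.3 and 6.99 in cKO and 4.67 and 8.499 in WT libraries. Of these 3, only Hoxc8 was higher in both cKO levels than in both WT levels. Hoxb6 had 7.67 and 12.96 in cKO and 6.06 and 7.29 in WT libraries, Hoxa6 had 6.75 and 4.94 in cKO and 5.29 and 14.05 in WT libraries, and Hoxb5 had 5.17 and 2.63 in cKO and 2.85 and 8.81 in WT libraries. The WT 2 library, with 488648 reads, had the highest level of Hoxa6, Hoxb5 and Hoxb7. On the normalized counts of the fit, Hoxa6 and Hoxb5 stayed highest in WT 2, at 9.49 and 19.0. Hoxb7 was highest in cKO 2 on that scale, at 27.8, against 19.0 in WT 2.

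**Figure D2:**
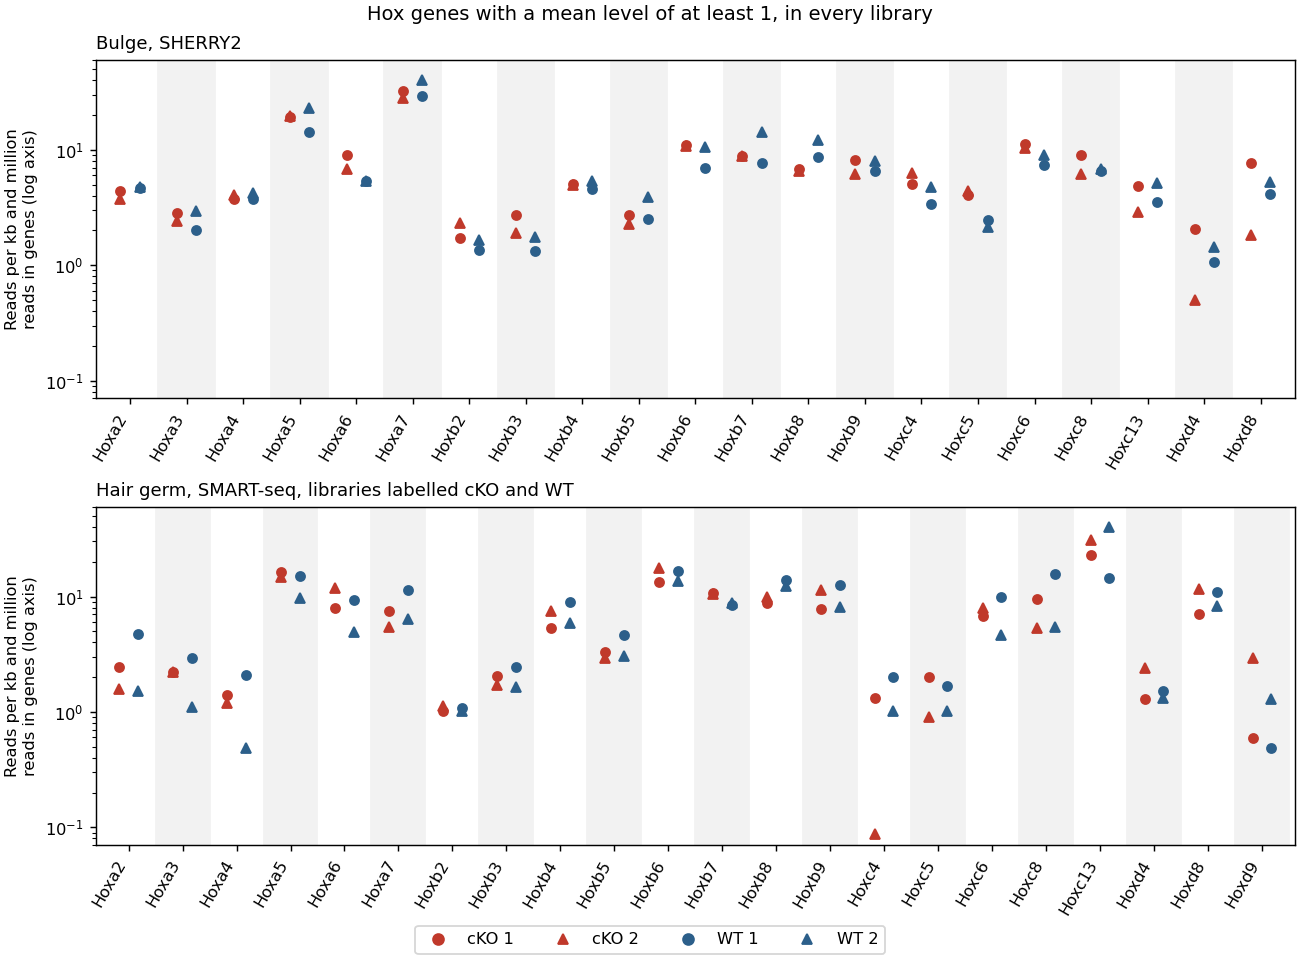
Levels of 21 of the 22 Hox genes with a mean of at least 1 in the bulge (top) and of the 22 in SMART-seq (bottom), in CPM per kb of exon on a log axis, for each library; red marks are cKO and blue marks WT, circles mouse 1 and triangles mouse 2. Hoxa7 stands at the top in the bulge and Hoxc13 in SMART-seq, and the lowest point is Hoxc4 in the SMART-seq library labelled cKO 2, at 0.0865.

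Summed per cluster, Hoxa gave 46.9 ± 1.44% of the Hox level in the bulge (SD, n = 4 libraries), Hoxb 30.1 ± 2.03%, Hoxc 18.7 ± 2.03% and Hoxd 4.26 ± 1.89%. In SMART-seq, Hoxa gave 23.5 ± 4.54% (SD, n = 4 libraries), Hoxb 38.0 ± 1.45%, Hoxc 30.5 ± 5.18% and Hoxd 8.04 ± 1.81%. The ranges of the Hoxa share did not meet: 45.0 to 48.5% in the bulge and 17.3 to 26.9% in SMART-seq. By paralog group, group 7 gave the largest share in the bulge (27.2 ± 3.06%) and group 6 in SMART-seq (19.8 ± 2.96%). Group 13 gave 2.62 ± 0.461% in the bulge and 17.7 ± 7.95% in SMART-seq, all of it from Hoxc13. The cell type and the library method differ together between these datasets and cannot be told apart.

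Hair germ SHERRY2, with the SHERRY2 method of the bulge and the labelled cell type of SMART-seq, had a Hoxa share of 30.5 and 58.0% in cKO and 57.7 and 46.9% in WT libraries. The Hoxc share was 41.1 and 16.1% in cKO and 17.2 and 16.8% in WT libraries. The library cKO 1 stood apart, and Hoxc13 alone had a level of 48.2 in it. These shares include the background that receptor genes show.

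Some Hox genes overlap other genes in their annotated spans, and whether exons or reads are shared was not examined. Of the 39 Hox genes, 23 overlap another annotated gene in the bulge table, 14 of them on the opposite strand and 11 of them another Hox gene. Hoxc5 spans Hoxc6, Hoxc8 and Hoxc9 and partly overlaps Hoxc10 on the same strand, and Hoxa3 spans Hoxa4, Hoxa5 and Hoxa6. The strand setting of the counting is not stated, so Hoxa7 and its antisense partner Hoxaas3 cannot be told apart. Hoxb7, Hoxb8, Hoxb9, Hoxc13 and Hoxd9 overlap no other annotated gene.

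Whether loss of Alkbh5 changed the Hox genes was asked within each dataset. Each comparison set 2 cKO against 2 WT mice. The p-values rest on the spread between these few animals, which edgeR and limma moderate with the variances of all genes. Fold changes are log2 of cKO over WT, and adjusted p-values follow Benjamini-Hochberg over all genes tested.

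In the bulge, no Hox gene passed an adjusted p of 0.05. The quasi-likelihood test of edgeR called 0 of the 26 Hox genes tested, against 476 of 15672 genes (3.04%). At an unadjusted p under 0.05 it named 3 of the 26, against 18.9% of all genes. Without the filter on low counts edgeR called 2 of 28 (5.75% of all genes), Hoxb8 among them, and DESeq2 called 1, which was not Hoxb8 (4.42% of all genes). The median log2 fold change of the 26 Hox genes was -0.15, with 10 positive and 16 negative, and that of all genes was -0.01.

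Hoxb8 had 275 and 344 reads in cKO and 487 and 467 in WT bulges. Its groups did not overlap, and its log2 fold change was -0.80 ± 0.21 (SE), with an adjusted p of 0.0917 in edgeR. The adjusted p was 0.0270 without the filter on low counts and 0.05003 in DESeq2. Over the omission of each library in turn, the fold change ran between -0.999 and -0.587 and no adjusted p was under 0.05.

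Hoxc5 also had an unadjusted p under 0.05, with 192 and 269 reads in cKO and 160 and 98 in WT bulges. Its log2 fold change was 0.70 ± 0.26 (SE), with an adjusted p of 0.203 in edgeR. Hoxc6, which lies within the span of Hoxc5, had a log2 fold change of 0.23 ± 0.19 (adjusted p 0.578). Hoxd9 had a log2 fold change of 1.63 ± 0.71, from 45 and 24 reads in cKO and 12 and 9 in WT bulges (adjusted p 0.269). Hoxa7, the most abundant member, had a log2 fold change of -0.36 ± 0.18 (adjusted p 0.337). Hoxd8 had -0.17 ± 0.56 (adjusted p 0.909), but -1.51 with an adjusted p of 0.00226 in edgeR when cKO 1 was left out, and 0.52 when cKO 2 was left out.

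On the scale of the fit (counts after TMM scaling), both cKO libraries lay above both WT libraries for 5 of the 26 Hox genes (24.7% of all genes did) and below them for 7 (26.2% of all genes). Those above included Hoxa6, Hoxc5, Hoxc6 and Hoxd9. Those below were Hoxa2, Hoxa4, Hoxa7, Hoxb4, Hoxb5, Hoxb8 and Hoxd3. Plain CPM values differ from the TMM scale by 0.17 (log2, cKO minus WT). On that scale 9 lay above (38.9% of all genes) and 3 below (15.5%), and only Hoxa2, Hoxb8 and Hoxd3 were below on both scales. The 8 markers of the bulge summed to 5955 and 5624 CPM in cKO and 8124 and 8686 in WT libraries, most of it from Krt15 with 5011 and 5207 in cKO and 7449 and 7967 in WT libraries. Only Krt15 and Cd200 of the 8 were lower in both cKO libraries than in both WT libraries, and 5 (Cd34, Lgr5, Lhx2, Nfatc1, Tcf7l1) were highest in cKO 1. All of the 8 but Krt15 were lowest in cKO 2, which was also the lowest library for Hoxd4 and Hoxd8. The 6 immune markers summed to 49.2 and 31.8 CPM in cKO and 132 and 104 in WT libraries, and the part of either list in the Hox values was not tested.

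In the hair germ by SHERRY2, limma on log2(normalized count + 1) called 0 of 39 Hox genes, against 3 of 38953 genes (0.0077%). At an unadjusted p under 0.05 it named 3 of the 39, against 4.62% of all genes. edgeR on the recovered whole reads called 0 of the 17 Hox genes that passed its filter (0.377% of all genes), with none under an unadjusted 0.05, and DESeq2 called 0 with 1 under it. Hoxc13, Hoxd3 and Hoxb13, the 3 named by limma, were not among those 17, so edgeR could not call them. The median log2 fold change of the 39 was 0.20, with 26 positive, and that of all genes was 0.06.

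Hoxc13 had the smallest p, with 181 and 13 reads in cKO and 6 and 2 in WT libraries. The library cKO 1 was far above the other 3, with a level of 48.2. The level of cKO 2 was 2.28, above the receptor percentile of 1.73 in that library, and the WT levels of 1.61 and 1.66 lay below the percentiles of theirs. The log2 fold change was 2.88 ± 0.64 (SE), with an adjusted p of 0.116 in limma. The authors' deposited table gives 3.95 ± 1.11 (its standard error) with an adjusted p of 1.00. Without cKO 1 the fold change was 1.12 (adjusted p 0.993 in limma), without cKO 2 it was 4.64 (adjusted p 0.000194), and without WT 2 it was 2.52 (adjusted p 0.0200). The male library cKO 1 held 164 Y-linked reads and the other 3 at most 1, and the part of sex in this value was not tested. Of the 5 hair germ markers, 4 were highest in cKO 1. Lef1 had 71.4 and 6.90 CPM in cKO and 12.6 and 24.6 in WT libraries, Cdh3 had 116 and 34.1 in cKO and 36.4 and 36.8 in WT libraries, and Runx1 had 148 and 22.9 in cKO and 33.0 and 73.7 in WT libraries. Bmpr1a was the fourth, and Cxcl14 was lowest in cKO 1, so the sum of the list was 608 and 514 in cKO and 507 and 624 in WT libraries. Of the 8 bulge markers, 4 were highest in cKO 1 (Lhx2, Lgr5, Tcf7l1 and Cd200), with Lhx2 at 518 and 24.2 in cKO and 36.4 and 67.5 in WT libraries, while Krt15 was lowest there at 2514, against 4085 to 5771 in the other 3. The 6 melanocyte markers summed to 160 and 38.0 in cKO and 72.7 and 83.9 in WT libraries. The part of these cell markers in the Hoxc13 value was not tested.

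The other Hox genes with an unadjusted p under 0.05 had few reads. Hoxd3 had a log2 fold change of -1.76 ± 0.76 (unadjusted p 0.0238, adjusted p 0.970 in limma), from 4 and 0 reads in cKO and 2 and 9 in WT libraries. Hoxb13 had -1.22 ± 0.60 (unadjusted p 0.0457, adjusted p 0.970 in limma), from 5 and 6 reads in cKO and 9 and 9 in WT libraries.

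For 7 of the 39 genes both cKO normalized counts lay above both WT counts (16.4% of all genes), and for 4 below (16.4%). Those above were Hoxb7, Hoxb8, Hoxc5, Hoxc6, Hoxc8, Hoxc13 and Hoxd9, and those below were Hoxa13, Hoxb13, Hoxd11 and Hoxd13. Of these 11, only Hoxb7, Hoxc6 and Hoxc8 were above the receptor background in all 4 libraries. Hoxc8 had 70 and 54 reads in cKO and 29 and 11 in WT libraries, with a log2 fold change of 1.06 ± 0.60 (unadjusted p 0.0816, adjusted p 0.970 in limma).

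In SMART-seq, edgeR called 0 of the 25 Hox genes tested and 0 of 17547 genes (0%) between the libraries labelled cKO and WT. At an unadjusted p under 0.05 it named 0 of the 25 Hox genes, against 179 genes (1.02%), and DESeq2 called 0 genes with 176 under it. The median log2 fold change of the 25 was -0.04, with 10 positive, and that of all genes was -0.02. The SE of the Hox fold changes ran between 0.23 and 1.33. Hoxb8 had the smallest p among them, with 309 and 235 reads in libraries labelled cKO and 528 and 379 in those labelled WT. Its log2 fold change was -0.52 ± 0.23 (unadjusted p 0.0722, adjusted p 1.00 in edgeR). Hoxb7 was the only gene whose libraries labelled cKO lay above (11.8% of all genes did), with a log2 fold change of 0.28 ± 0.26, and Hoxb8 the only gene whose libraries lay below (12.5%). Hoxc13 had a log2 fold change of -0.04 ± 0.48 (adjusted p 1.00 in edgeR).

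**Figure D3:**
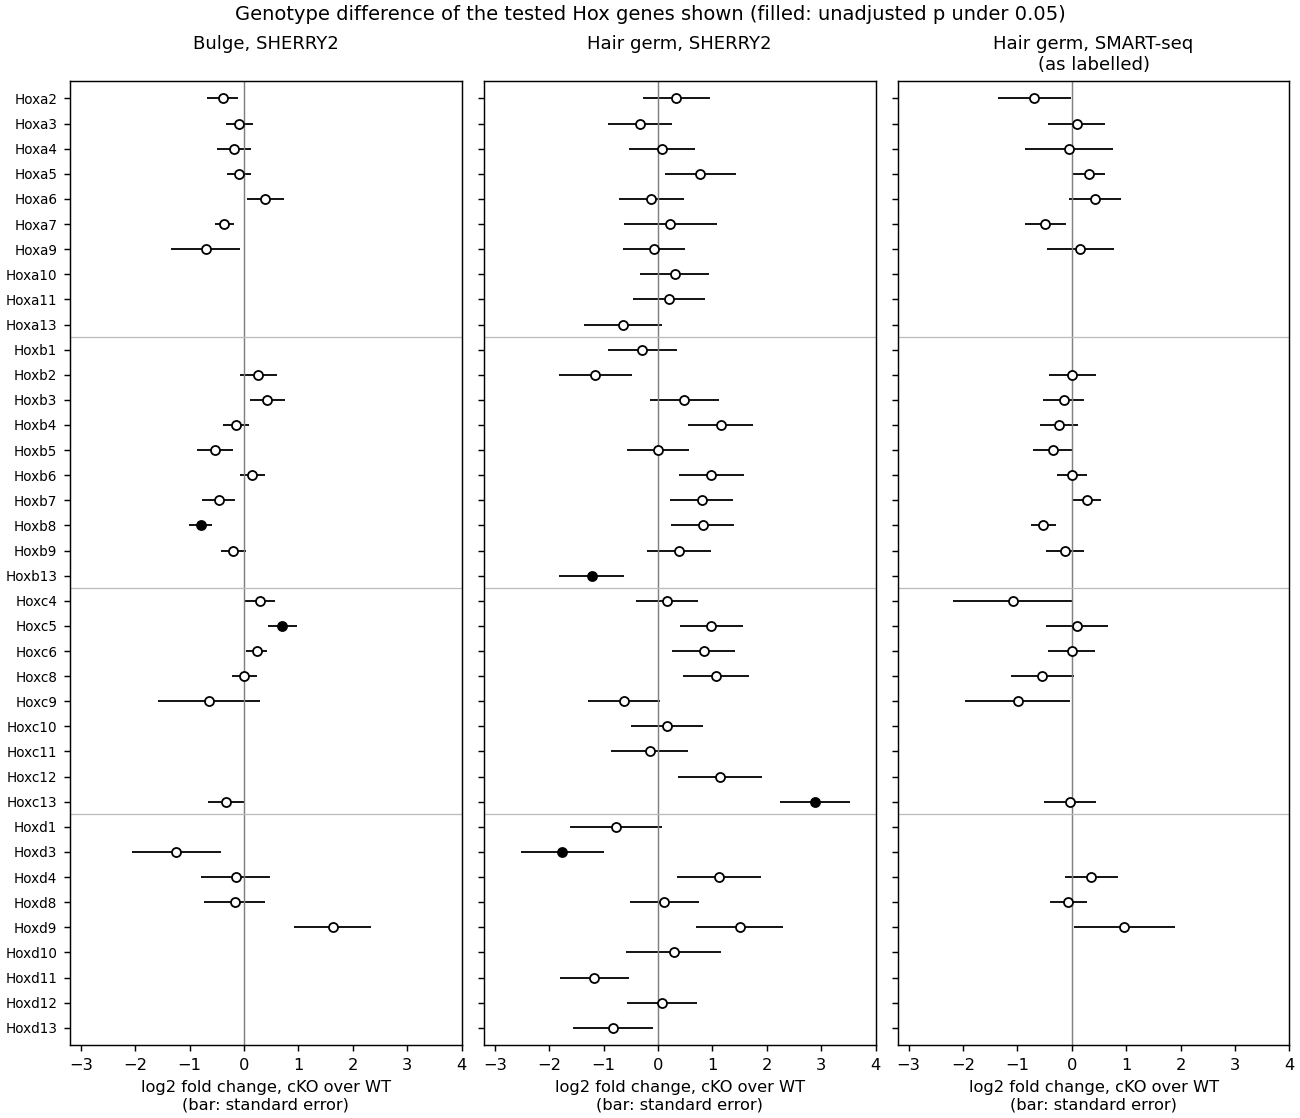
Log2 fold change of the tested Hox genes shown, cKO over WT, with its standard error, in the 3 datasets; grey lines part the clusters, and filled points have an unadjusted p under 0.05. Filled are Hoxb8 and Hoxc5 in the bulge, and Hoxb13, Hoxc13 and Hoxd3 in hair germ SHERRY2; no Hox gene passed an adjusted p of 0.05 in any of the 3 fits.

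**Figure D4:**
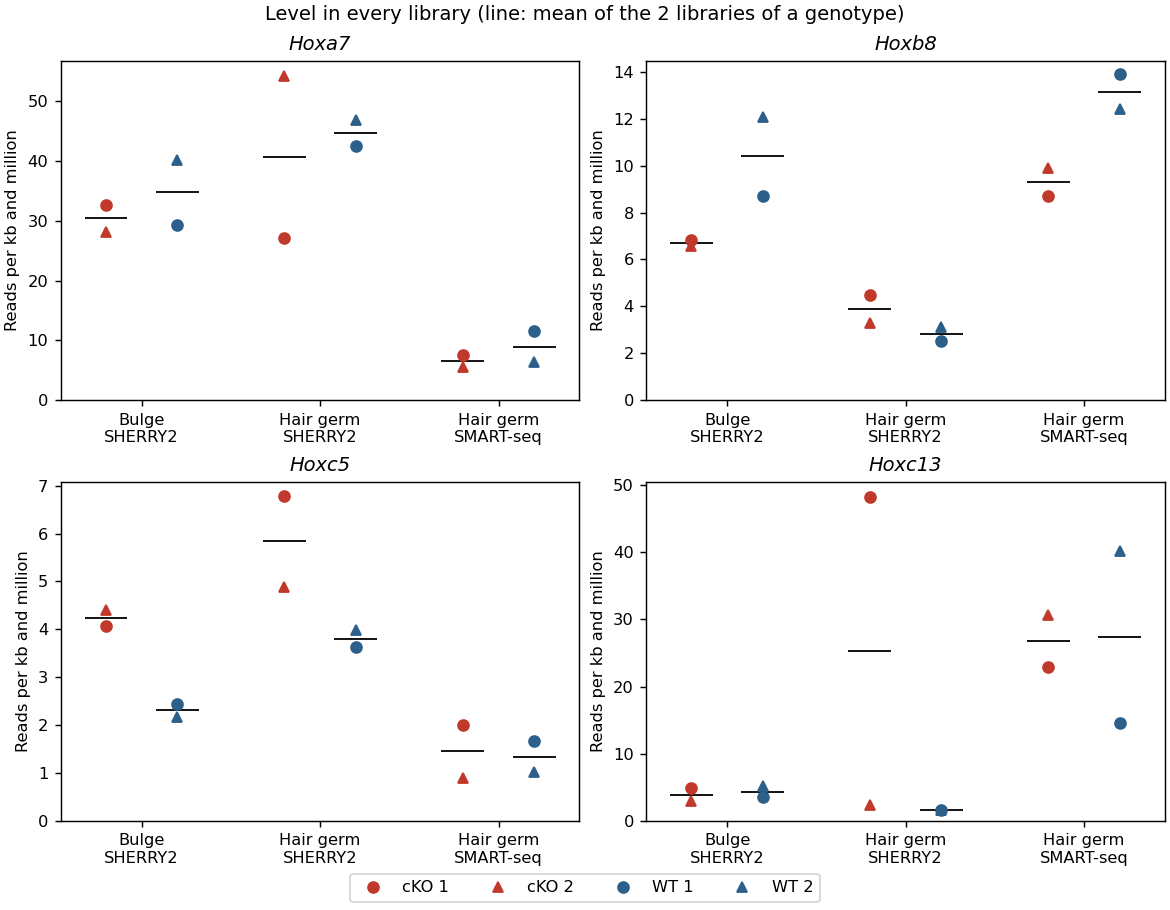
Level of Hoxa7, Hoxb8, Hoxc5 and Hoxc13 in each library, in CPM per kb of exon, with cKO (red) left of WT (blue) and a line at the mean of the 2 libraries. Hoxb8 is lower in both cKO libraries in the bulge and in SMART-seq, and the Hoxc13 value of 48.2 in hair germ SHERRY2 comes from cKO 1 alone.

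Genes that act with or on the Hox genes were set beside them as lists, with counts against the 3.04% of all genes called in the bulge. Of the 10 cofactors (Pbx, Meis and Pknox genes and Pbxip1), none was called in any dataset. Pknox2, a Meis relative, had the smallest p in the bulge, at 2.29 and 0.707 CPM in cKO and 4.44 and 5.25 in WT libraries (log2 fold change -1.88 ± 0.60, adjusted p 0.142 in edgeR). Meis1 had 20.9 and 20.9 in cKO and 25.3 and 23.6 in WT libraries (-0.40 ± 0.18, adjusted p 0.295). The list's median log2 fold change was close to 0 in the bulge, 0.20 in hair germ SHERRY2 and -0.23 in SMART-seq.

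Of 30 Polycomb genes, 1 rose in cKO bulges and none fell. Pcgf3, a subunit of a variant Polycomb complex, had 167 and 184 CPM in cKO and 76.4 and 79.2 in WT bulges, a log2 fold change of 1.00 ± 0.14 (adjusted p 0.0164 in edgeR). The list's median log2 fold change was -0.01, and Ezh2, Eed, Suz12 and Bmi1 were not among the genes called. In the hair germ no Polycomb gene was called, with Pcgf1 at the smallest p in SHERRY2 (28.2 and 28.0 CPM in cKO and 9.25 and 12.3 in WT libraries, adjusted p 0.911 in limma). None of 12 trithorax and H3K27 demethylase genes and none of 7 cluster boundary factors (Ctcf, cohesin subunits and Maz) was called in any dataset. Their median log2 fold changes were 0.15 and 0.20 in the bulge. Psip1, which tethers a trithorax methyltransferase to chromatin, had 66.3 and 73.9 CPM in cKO and 45.5 and 48.1 in WT bulges (0.41 ± 0.15, adjusted p 0.196 in edgeR), and Ash1l had 172 and 151 in cKO and 128 and 104 in WT bulges (adjusted p 0.400). The cohesin subunits Smc3 and Smc1a had log2 fold changes of 0.38 and 0.27 there (adjusted p 0.289 and 0.418).

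Retinoic acid is a known inducer of Hox genes. Of 18 retinoid pathway genes, 13 were tested in the bulge and none passed, with a median log2 fold change of -0.38. Dhrs3, which turns retinal back into retinol, had 46.2 and 39.6 CPM in cKO and 58.2 and 61.5 in WT bulges (-0.65 ± 0.16, adjusted p 0.0750 in edgeR). Crabp2, which carries retinoic acid to its receptors, had 11.9 and 9.04 in cKO and 15.5 and 24.3 in WT bulges (-1.09 ± 0.28, adjusted p 0.0849 in edgeR). In SMART-seq, Crabp2 had 30.9 and 28.6 in libraries labelled cKO and 17.5 and 15.9 in those labelled WT (0.81 ± 0.24, adjusted p 1.00). Cyp26b1, which degrades retinoic acid, had 15.1 and 6.90 in cKO and 29.1 and 40.9 in WT libraries of hair germ SHERRY2 (-1.26 ± 0.58, adjusted p 0.970 in limma).

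Other homeobox and T-box genes of position were mostly absent: 6 of 21 were tested in the bulge and 6 in SMART-seq. None was called. Irx5 had 61.4 and 50.3 CPM in cKO and 78.9 and 82.2 in WT bulges (-0.70 ± 0.16, adjusted p 0.0657 in edgeR), and Irx3 had 37.4 and 21.7 in cKO and 63.2 and 50.6 in WT bulges (-1.13 ± 0.27, adjusted p 0.0721). All 6 had a negative log2 fold change in the bulge, with a median of -0.66.

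Among the targets of Hoxc13 and the hair shaft genes, 21 of 22 were listed and 7 were tested in the bulge. Foxq1, a forkhead factor of the hair shaft known in mice as a Hoxc13 target, fell in cKO bulges. It had 10.4 and 13.7 CPM in cKO and 35.6 and 49.4 in WT libraries, a log2 fold change of -1.98 ± 0.23 (adjusted p 0.00738 in edgeR). Krt83, a hair keratin, had 1.44 and 1.92 in cKO and 0.142 and 0.0681 in WT bulges (3.69 ± 0.85, adjusted p 0.0655 in edgeR). The summed level of the 21 genes was 51.8 and 65.2 CPM in cKO and 83.6 and 99.0 in WT bulges, with 5 of them (Krt33b, Krt34, Krt72, Krt73, Krt82) at 0 in all 4 libraries.

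In the hair germ the same genes were tested without a call. Their sum was 211 and 202 CPM in cKO and 197 and 348 in WT libraries of SHERRY2, so on the CPM scale the library cKO 1 with its high Hoxc13 did not stand apart. Many of these genes were low there, such as Krt34 at 1.32 to 6.14 CPM, in a dataset where receptor genes also had reads. The sum was not taken on the scale of the fit, and the action of Hoxc13 on these genes was not tested. Msx2, a homeobox gene of the hair matrix, was the list's smallest p there, at 29.5 and 9.92 in cKO and 4.63 and 8.19 in WT libraries (1.77 ± 0.58, adjusted p 0.872 in limma). In SMART-seq the sum was 124 and 97.1 in libraries labelled cKO and 46.8 and 354 in those labelled WT. WT 2 was the highest and WT 1 the lowest library both for this sum and for Hoxc13. Krt71, a keratin of the inner root sheath, had 28.5 and 8.67 in libraries labelled cKO and 3.82 and 110 in those labelled WT, and Foxn1, a regulator of hair keratins, had 18.3 and 28.7 in libraries labelled cKO and 4.09 and 38.2 in those labelled WT. In WT 2, Krt71 was the largest part of the sum, followed by Krt25 at 54.7 and Krt28 at 43.1. The hair keratins Krt31, Krt34 and Krt83 were at 0.346 or less in that library, and Krt35 was at 9.43. The sum is thus no measure of hair keratins alone.

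Of the genes that border the clusters without being Hox genes, 19 were listed, 13 were tested in the bulge and 1 rose, with a median log2 fold change of -0.07. Cbx5, which encodes a heterochromatin protein and lies beside the Hoxc cluster, had 192 and 215 CPM in cKO and 91.0 and 77.4 in WT bulges (1.10 ± 0.16, adjusted p 0.0184 in edgeR). Of 16 noncoding genes of the clusters, 7 were tested in the bulge and none was called (median 0.12). Hotairm1 had 9.10 and 9.59 CPM in cKO and 9.49 and 14.6 in WT bulges (log2 fold change -0.53, adjusted p 0.381 in edgeR). Hotair and Hottip, known from the high-numbered ends of the Hoxc and Hoxa clusters, had no read in the bulge, and in SMART-seq Hottip had none and Hotair had 2 and 0 in libraries labelled cKO and 0 and 1 in those labelled WT.

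In the hair germ no member of any of the 9 lists was called. The median log2 fold changes in hair germ SHERRY2 were 0.24 for Polycomb, 0.50 for trithorax, 0.49 for boundary, 0.24 for retinoid, -0.28 for positional, -0.04 for hair shaft, 0.51 for neighbour and -0.10 for noncoding genes, beside 0.06 for all genes. The members with the smallest p there had the following log2 fold changes, with adjusted p-values of 0.970 in limma. Among regulators these were 0.94 for Pbxip1, 0.82 for Pbx2, 1.01 for Phc2, 1.39 for Dpy30, 1.06 for Wdr5, 1.25 for Maz and 0.82 for Smc3. Among the others they were -1.19 for Emx2, 1.04 for Prrx2, 0.90 for Krt27, 1.38 for Mtx2, 1.45 for Copz1, -1.72 for Haglr and 1.04 for Hotairm1. In SMART-seq the medians were -0.09 for Polycomb, -0.06 for trithorax, -0.11 for boundary, -0.05 for retinoid, 0.03 for positional, -1.37 for hair shaft, -0.06 for neighbour and -0.38 for noncoding genes, beside -0.02 for all genes. The smallest p-values belonged to Pknox1 (0.26), Meis1 (-0.35), Bmi1 (-0.48), Rnf2 (-0.38), Dpy30 (-0.59), Kmt2b (0.25), Maz (-0.22), Rad21 (-0.24), Rdh10 (-0.78), Irx2 (0.24), Irx5 (-0.21), Msx2 (-0.88), Krt27 (-1.89), Calcoco1 (0.29), Lnpk (-0.29), Hoxb5os (0.56) and Hoxaas2 (-0.80), given as log2 fold changes with adjusted p-values of 1.00 in edgeR.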

How the data were processed

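Members and lists were chosen with earlier results of these data known. For the bulge, the authors deposited a read count and an FPKM value per gene and library with the exonic size; their FPKM matched CPM divided by kilobases within 0.492% (genes with at least 100 reads). For hair germ SHERRY2 the deposited values are a signal, counts divided by a size factor per the file headers, beside the authors' log2 fold changes and p-values. In each of its columns 100% of values were whole multiples of 1 read (tolerance 0.01), so reads were recovered. SMART-seq counts are raw, as deposited. Tools, per the submitters' processing notes, include STAR, HISAT2, featureCounts and DESeq2, with GRCm38, mm10 and GRCm39; not given in the sources used here: versions, annotation, strand setting.

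Counts were tested with edgeR 4.0.16 (quasi-likelihood, TMM, filterByExpr), and hair germ SHERRY2 with limma 3.58.1 (trend) on log2(normalized count + 1), keeping genes whose mean reached 1. Fold changes on that scale understate those of low genes. Alternatives were DESeq2 1.42.0, other scalings, filters and pseudocounts, a replicate block and leaving out each library. Levels use the bulge table's exonic size in all datasets; receptor genes without a match by symbol or Ensembl ID have none. The hair germ SHERRY2 columns name genotype and number only. The scripts were tested on simulated data. Members with a mean level of at least 1 in the bulge or SMART-seq, or an unadjusted p under 0.05, are given per library, and of each list the called genes and those with the smallest p. The other Hox values, Krt83, Krt71 and Foxn1 were added after their values were seen, as was the count on plain CPM. Values of some genes are not reported here.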

Additional observations from a re-analysis of the deposited data

Results flagged for a closer look

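Hoxb8 went opposite ways in 2 pairs of datasets, with the cKO and WT libraries of each dataset not overlapping. The log2 fold change was -0.80 in the bulge and 0.82 in hair germ SHERRY2, and it was 0.82 in hair germ SHERRY2 and -0.52 in SMART-seq, as labelled. The difference between datasets was not tested. In hair germ SHERRY2, Hoxb8 rested on 18 and 20 reads in cKO and 10 and 4 in WT libraries, and it was above the 95th percentile of receptor genes in only 2 of the 4 libraries.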

How the results depend on the processing

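The number of genes called in the bulge (476) was 1549 without the filter on low counts and 1191 in DESeq2, and 218 to 1601 when 1 library was left out. Of Hox genes, 0 were called there, 2 without the filter, 1 in DESeq2 and 0 to 2 when 1 library was left out. The 3 calls in hair germ SHERRY2 became 0 with a pseudocount of 0.1, 0 without the filter on low values, 63 in edgeR on recovered reads, 0 in DESeq2 and 0 to 105 when 1 library was left out, with 0 to 1 Hox gene among them. In SMART-seq the 0 calls became 30 without the filter, none of them a Hox gene. Hoxd8 in the bulge turned to 0.52 without cKO 2, and leaving out 1 library ran from -1.51 to 0.52. Hoxc13 in SMART-seq, at -0.04, ran from -0.58 to 0.84 when 1 library was left out (0.19 without cKO 1, 0.84 without WT 2). Cluster shares stayed within the spread between libraries without division by exon length, and the 22 genes at a level of 1 or more became 24 in the bulge and in SMART-seq. The causes were not tested.

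With the replicate number as a block, the bulge gave 506 calls, hair germ SHERRY2 5 and SMART-seq 0, with 0 Hox genes in each, and Hoxc13 in SMART-seq turned to 0.11. The numbers only name different mice. Over genes, the deviations of same-numbered libraries from the means of their genotypes correlated at -0.09 in the bulge, -0.46 in hair germ SHERRY2 and 0.23 in SMART-seq. These are not correlations of the libraries themselves.

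Hair germ SHERRY2 had the fewest reads, 488648 to 2317407 per library, and a receptor background that 8 of 39 Hox genes exceeded in all 4 libraries. All fits rest on 2 mice per genotype.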

Other observations

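The library from a male had the highest Hoxc13 level of its dataset in the bulge (WT 2, 5.18) and in hair germ SHERRY2 (cKO 1, 48.2). In the bulge the female library cKO 1 was close, at 4.87. By level, WT 2 was also the highest bulge library for Hoxa2, Hoxa3, Hoxa4, Hoxa5, Hoxa7, Hoxa9, Hoxb4, Hoxb5, Hoxb7, Hoxb8, Hoxc9 and Hoxd3. The other tested Hox genes, Hoxc6 and Hoxd8 among them, were highest in a cKO library. The genes highest in WT 2 included all 7 that were lower in both cKO bulges on the scale of the fit. Hox genes took 432 CPM in WT 2, the most of the 4 bulge libraries. In SMART-seq the libraries from males, labelled cKO 2 and WT 2, had 30.7 and 40.2, and those from females, labelled cKO 1 and WT 1, had 22.9 and 14.5. The 6 melanocyte markers split these libraries the same way, with sums of 176 and 131 CPM in those labelled cKO 2 and WT 2 and 26.2 and 26.5 in those labelled cKO 1 and WT 1. The part of sex or of melanocyte content was not tested, and no correlation is given over so few mice.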
